A study of Homo sapiens with 9 samples.

Results

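The p53 target and apoptosis genes described here are 10 genes, MDM2, GDF15, FAS, TNFRSF10B, BAX, BBC3, SESN1, TP53INP1, TP53I3 and ZMAT3, taken by symbol from a table of 19356 genes. They were chosen as targets of p53 other than inhibitors of cyclin-dependent kinases, and all 10 were among the 16457 genes that passed a filter on low values. These genes and all lists below were chosen with earlier results of these data known. Their counts beside the share of all genes are therefore a description, not a test. The RNA came from LN229, an established human glioblastoma line, and polyadenylated RNA was sequenced. The groups were B3 and C4, a pair of LN229 lines with the ARNT2 gene knocked out by CRISPR, and wild-type cells (WT), with 3 libraries each. All cells were grown in DMEM with 5% FBS, with no further treatment given in the labels. Within B3 or within C4 the knockout and the history of that line cannot be told apart, and in bulk RNA fewer cells of a type and less RNA per cell cannot be told apart either. The study asked what ARNT2 does in glioblastoma proliferation and differentiation.

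p53 is a transcription factor that is held at a low level by the ubiquitin ligase MDM2 and accumulates when DNA damage or other stress blocks that control. Its targets include brakes on the cell cycle, DNA repair genes, death receptors at the cell surface and members of the BCL2 family that open the mitochondrial outer membrane. MDM2 is itself a target, which closes a feedback loop. Several of the genes, such as GDF15, BBC3 and TNFRSF10B, are also induced by the amino acid and endoplasmic reticulum stress factors ATF4 and CHOP, without need for p53. The labels say nothing of p53 activity in these cells. ARNT2 is a basic helix-loop-helix PAS protein, a family whose dimers bind E-box-like DNA cores.

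In B3, 7 of the 10 genes were higher than in WT and 1 was lower, and in C4, 4 were higher and 4 were lower. TP53INP1, MDM2, BAX and TP53I3 rose in both lines and TNFRSF10B fell in both. GDF15 rose in B3 and fell in C4, and BBC3 and FAS fell in C4, where they were also lower than in B3. The largest rise of the 10 was that of TP53INP1 in B3, to 131.3% of WT, and the largest fall brought BBC3 in C4 to 73.1% of WT. A change counts as called when limma gave a Benjamini-Hochberg adjusted p under 0.05 over all genes tested. By that rule 47.9% of all tested genes were called in B3, 23.2% higher and 24.6% lower, and 56.2% in C4, 28.2% higher and 28.0% lower. Both comparisons share the WT libraries. Called in the same direction in both lines were 4 of the 10 genes upward, against 11.6% of all genes, and 1 downward, against 12.5%. GDF15 was the 1 gene called in opposite directions, as were 8.58% of all genes.

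Sequences around the start sites are shown for the 4 genes with a p53 match by the looser search below, and for BAX with its repeated E-box core. The windows are from RefSeq on GRCh38.p14 and run from 250 bases before a transcript start to 50 bases after it. They cover 8 of the 10 genes in 16 windows, and none is shown for TP53INP1 or TNFRSF10B. An exact paired p53 site, 2 decamers at most 13 bases apart, was in none of these windows and in 0.0285% of 35116 windows of the same length. A search that was added later allowed up to 3 departures from the decamer letters outside their central C and G, in a pair of decamers with no gap. It found a match in windows of MDM2, GDF15, FAS and SESN1, and 1.12% of all windows held such a match. The former is a count of genes, some with several windows, so it cannot be set directly against a share of windows. Capitals mark these matches in 4 of the 5 sequences, and mark the E-box core CACGTG in the BAX sequence. MDM2 is shown at a downstream start (chr12:68808767-68809066, plus strand), GDF15 at chr19:18385908-18386207 (plus strand), FAS at chr10:88991181-88991480 (plus strand), SESN1 at chr6:109008939-109009238 (minus strand) and BAX at chr19:48954625-48954924 (plus strand), each 5′ to 3′.
MDM2: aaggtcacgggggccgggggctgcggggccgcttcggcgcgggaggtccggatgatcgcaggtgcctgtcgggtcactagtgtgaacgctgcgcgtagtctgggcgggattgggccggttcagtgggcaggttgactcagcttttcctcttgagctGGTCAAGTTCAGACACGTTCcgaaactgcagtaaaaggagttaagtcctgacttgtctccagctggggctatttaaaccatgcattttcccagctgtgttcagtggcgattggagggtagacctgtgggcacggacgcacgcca
GDF15: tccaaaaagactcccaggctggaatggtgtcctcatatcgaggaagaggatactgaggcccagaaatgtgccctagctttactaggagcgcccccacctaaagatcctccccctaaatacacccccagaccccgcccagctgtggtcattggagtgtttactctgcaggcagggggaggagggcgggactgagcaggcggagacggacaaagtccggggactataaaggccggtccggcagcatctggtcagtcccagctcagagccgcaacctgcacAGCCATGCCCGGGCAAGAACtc
FAS: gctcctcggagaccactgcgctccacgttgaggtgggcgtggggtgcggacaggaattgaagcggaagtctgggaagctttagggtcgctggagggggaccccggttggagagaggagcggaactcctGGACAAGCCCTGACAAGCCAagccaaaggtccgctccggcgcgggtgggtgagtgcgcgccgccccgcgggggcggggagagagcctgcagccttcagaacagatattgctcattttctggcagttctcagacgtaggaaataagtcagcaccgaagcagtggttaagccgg
SESN1: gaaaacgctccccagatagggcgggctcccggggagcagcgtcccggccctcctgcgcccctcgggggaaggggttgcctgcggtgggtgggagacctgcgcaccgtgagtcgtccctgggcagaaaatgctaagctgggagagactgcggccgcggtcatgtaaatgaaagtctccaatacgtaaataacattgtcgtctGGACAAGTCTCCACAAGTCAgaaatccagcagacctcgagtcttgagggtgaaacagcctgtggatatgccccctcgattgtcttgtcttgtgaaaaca
BAX: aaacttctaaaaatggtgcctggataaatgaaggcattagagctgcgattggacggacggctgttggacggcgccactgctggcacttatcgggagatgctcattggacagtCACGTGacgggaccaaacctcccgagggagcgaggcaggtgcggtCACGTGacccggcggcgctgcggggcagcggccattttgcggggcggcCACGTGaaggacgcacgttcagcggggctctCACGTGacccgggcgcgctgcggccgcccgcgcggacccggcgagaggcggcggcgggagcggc
In MDM2 the match began 94 bases before the start, in FAS 122 bases before and in SESN1 49 bases before, and in GDF15 it began 28 bases after the start. A single exact decamer was in the FAS and SESN1 windows shown and in 6.63% of all windows. CACGTG occurred 4 times in BAX and once in BBC3. At least 1 copy was in 7.26% of all windows and 3 or more in 0.0940%. The core GCGTG, read on both strands, was in at least 1 window each of MDM2, FAS, SESN1 and ZMAT3. It was in 36.5% of all windows, which is again a share of windows and not of genes. The amino acid response core TGATGNAAN was in none of the 8 genes and in 3.61% of all windows. All searches covered both strands, no window shown holds both a capitalised p53 match and CACGTG, and the matches describe letters, not binding.

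MDM2 (ENSG00000135679.23, chromosome 12, 68808176 to 68850686, plus strand, GRCh38), the ubiquitin ligase of p53, stood at log2 values, as deposited by the authors, of 15.35, 15.34 and 15.39 in B3, at 15.15, 15.28 and 15.24 in C4 and at 15.06, 15.03 and 15.03 in WT. The 3 groups did not overlap, with B3 highest and WT lowest. MDM2 rose by 0.32 ± 0.03 on the log2 scale in B3 (limma SE, n = 3 libraries per group here and below, adjusted p = 2.06e-09) and by 0.18 ± 0.03 in C4 (adjusted p = 6.52e-06), and C4 differed from B3 by -0.14 ± 0.03 (adjusted p = 0.000193). Its paralogue MDM4, which binds p53 and blocks its activity, fell in both lines, by 0.10 ± 0.03 in B3 (adjusted p = 0.00459) and by 0.20 ± 0.03 in C4 (adjusted p = 2.27e-06). With libraries scaled to the same total the B3 call of MDM4 ended (adjusted p = 0.0596).

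GDF15, a secreted cytokine of the TGF-beta superfamily that many stresses induce (ENSG00000130513.6, chromosome 19, 18374731 to 18389176, plus strand), moved in opposite directions. Its log2 values were 15.40, 15.41 and 15.51 in B3, 14.94, 14.94 and 14.99 in C4 and 15.22, 15.17 and 15.20 in WT. All B3 libraries lay above WT and all C4 libraries below it. The change was 0.24 ± 0.03 in B3 (adjusted p = 1.92e-07) and -0.24 ± 0.03 in C4 (adjusted p = 8.12e-08). Between the lines GDF15 in C4 was at 71.5% of its B3 level, a change of -0.48 ± 0.03 (adjusted p = 5.59e-13).

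**Figure D1:**
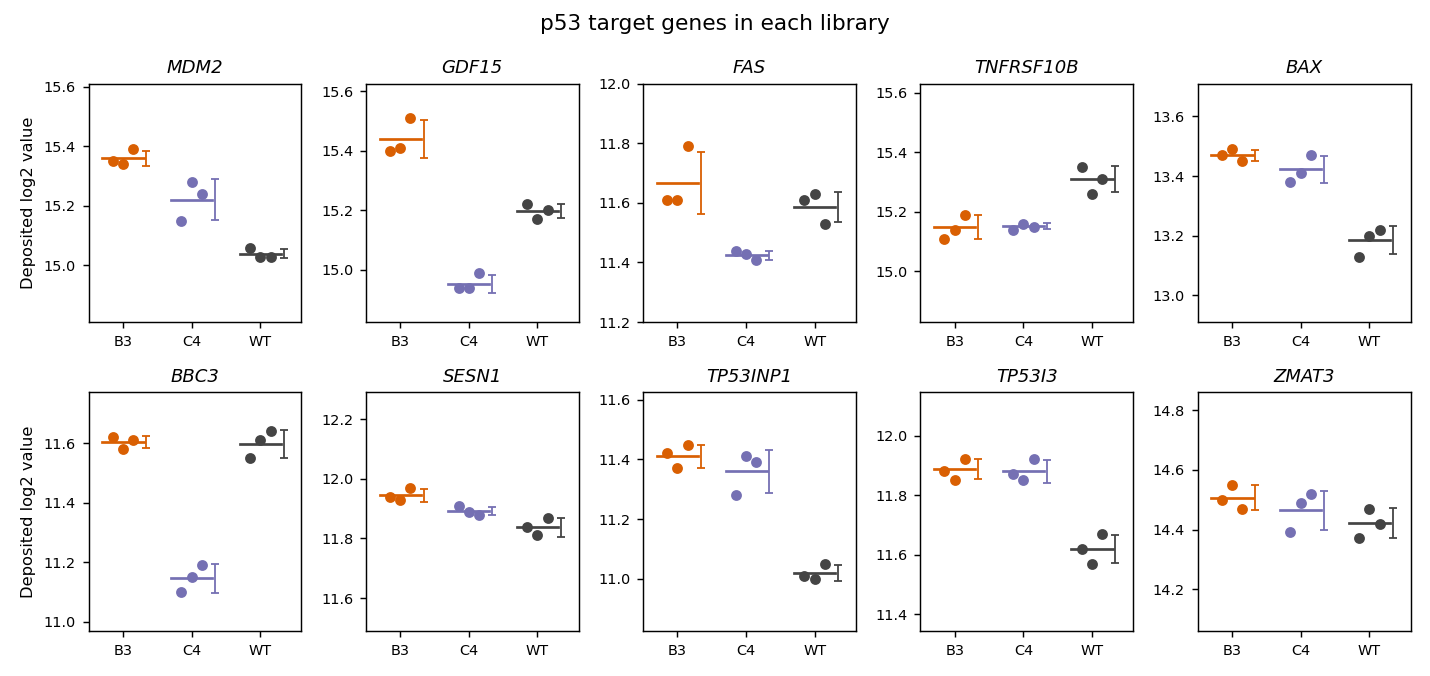
Deposited log2 values (y axis, a span of 0.8 in each panel, not starting at 0) of the 10 p53 target genes in the 3 libraries each of B3, C4 and WT (x axis). Points are libraries, lines are group means and the bars beside them show 1 SD. TP53INP1, TP53I3, BAX and MDM2 lie above WT in both lines, as does SESN1 by a narrower margin. BBC3, GDF15 and FAS lie lowest in C4.

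The death receptor genes among those described here, TNFRSF10B and FAS, fell or did not pass the test. TNFRSF10B, the gene of the TRAIL receptor DR5 (ENSG00000120889.12, chromosome 8, 23020133 to 23069179, minus strand), had log2 values of 15.11, 15.14 and 15.19 in B3, 15.14, 15.16 and 15.15 in C4 and 15.35, 15.26 and 15.31 in WT. The 6 libraries of the knockout lines lay below the 3 of WT. The change was -0.16 ± 0.03 in B3 (adjusted p = 1.68e-05) and -0.16 ± 0.03 in C4 (adjusted p = 1.44e-05), and the difference between C4 and B3 had a 95% interval of -0.05 to 0.06. FAS, the receptor of the FAS ligand (ENSG00000026103.21, chromosome 10, 88990582 to 89015785, plus strand), stood at 11.61, 11.61 and 11.79 in B3, at 11.44, 11.43 and 11.41 in C4 and at 11.61, 11.63 and 11.53 in WT. C4 lay below every other library, whereas B3 overlapped WT and had 1 library, at 11.79, above the rest. FAS fell by 0.16 ± 0.04 in C4 (adjusted p = 0.00128). In B3 its change was 0.08 ± 0.04 (adjusted p = 0.103, 95% interval -0.002 to 0.162). It passed the test without B3 replicate 1 (adjusted p = 0.0420) and with libraries scaled to the same total (adjusted p = 0.0229), in a range of adjusted p from 0.0229 to 0.671 over the alternatives.

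The genes that act on mitochondria went different ways in C4. BAX, whose product forms pores in the mitochondrial outer membrane (ENSG00000087088.19, chromosome 19, 48954815 to 48961798, plus strand), had log2 values of 13.47, 13.49 and 13.45 in B3, 13.38, 13.41 and 13.47 in C4 and 13.13, 13.20 and 13.22 in WT. Both lines lay above WT, and they overlapped each other. BAX rose by 0.285 ± 0.027 in B3 (adjusted p = 8.39e-09) and by 0.24 ± 0.03 in C4 (adjusted p = 9.03e-08), while C4 differed from B3 by -0.05 ± 0.03 (adjusted p = 0.137), a difference that passed the test without C4 replicate 3 (adjusted p = 0.0357). BBC3, the gene of PUMA, which sets BAX free by binding survival proteins of the BCL2 family (ENSG00000105327.17, chromosome 19, 47220822 to 47232766, minus strand), stood at 11.62, 11.58 and 11.61 in B3, at 11.10, 11.15 and 11.19 in C4 and at 11.55, 11.61 and 11.64 in WT. C4 lay below both other groups, which overlapped. BBC3 fell by 0.45 ± 0.03 in C4 (adjusted p = 5.69e-11), and its change of 0.01 in B3 had a 95% interval of -0.063 to 0.075.

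Of the 4 genes with roles in growth control, redox metabolism and RNA, 2 rose in both lines. TP53INP1, a cofactor of p53 that also takes part in autophagy (ENSG00000164938.13, chromosome 8, 94925972 to 94949411, minus strand), had log2 values of 11.42, 11.37 and 11.45 in B3, 11.28, 11.41 and 11.39 in C4 and 11.011, 10.996 and 11.048 in WT. It rose by 0.39 ± 0.04 in B3 (adjusted p = 5.35e-09) and by 0.34 ± 0.04 in C4 (adjusted p = 2.71e-08). Both lines lay above WT and overlapped each other. TP53I3, a quinone oxidoreductase (ENSG00000115129.13, chromosome 2, 24077433 to 24085861, minus strand), stood at 11.88, 11.85 and 11.92 in B3, at 11.87, 11.85 and 11.92 in C4 and at 11.62, 11.57 and 11.67 in WT. Its rise was 0.27 ± 0.03 in B3 (adjusted p = 2.19e-07) and 0.26 ± 0.03 in C4 (adjusted p = 2.02e-07), and the 95% interval of C4 minus B3 was -0.07 to 0.06. In both genes, as in BAX, the knockout lines overlapped each other and WT lay below them.

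For SESN1 and ZMAT3 the larger of the changes from WT in the 2 lines was smaller than for the other 8 genes. SESN1, a sestrin that restrains mTORC1 signalling (ENSG00000080546.13, chromosome 6, 108986437 to 109094819, minus strand), had log2 values of 11.94, 11.93 and 11.97 in B3, 11.91, 11.89 and 11.88 in C4 and 11.84, 11.81 and 11.87 in WT. No 2 of these groups overlapped, and their means differed by at most 0.11. SESN1 rose by 0.11 ± 0.03 in B3 (adjusted p = 0.00278), and its change of 0.055 ± 0.028 in C4 (adjusted p = 0.10) passed the test with libraries scaled to the same total (adjusted p = 0.0145). ZMAT3, a zinc finger protein that binds RNA (ENSG00000172667.10, chromosome 3, 179017223 to 179072279, minus strand), stood at 14.50, 14.55 and 14.47 in B3, at 14.39, 14.49 and 14.52 in C4 and at 14.37, 14.47 and 14.42 in WT. All 3 groups overlapped. The rise of 0.09 ± 0.03 in B3 (adjusted p = 0.0228) was lost without WT replicate 1 (adjusted p = 0.0922), WT replicate 3 (0.0642) or B3 replicate 2 (0.140) and without the intensity trend (0.0785), in a range of adjusted p from 0.00285 to 0.140 over the alternatives. In C4 the change of ZMAT3 was 0.04 ± 0.03 (adjusted p = 0.245), which passed without C4 replicate 1 (adjusted p = 0.0265).

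**Figure D2:**
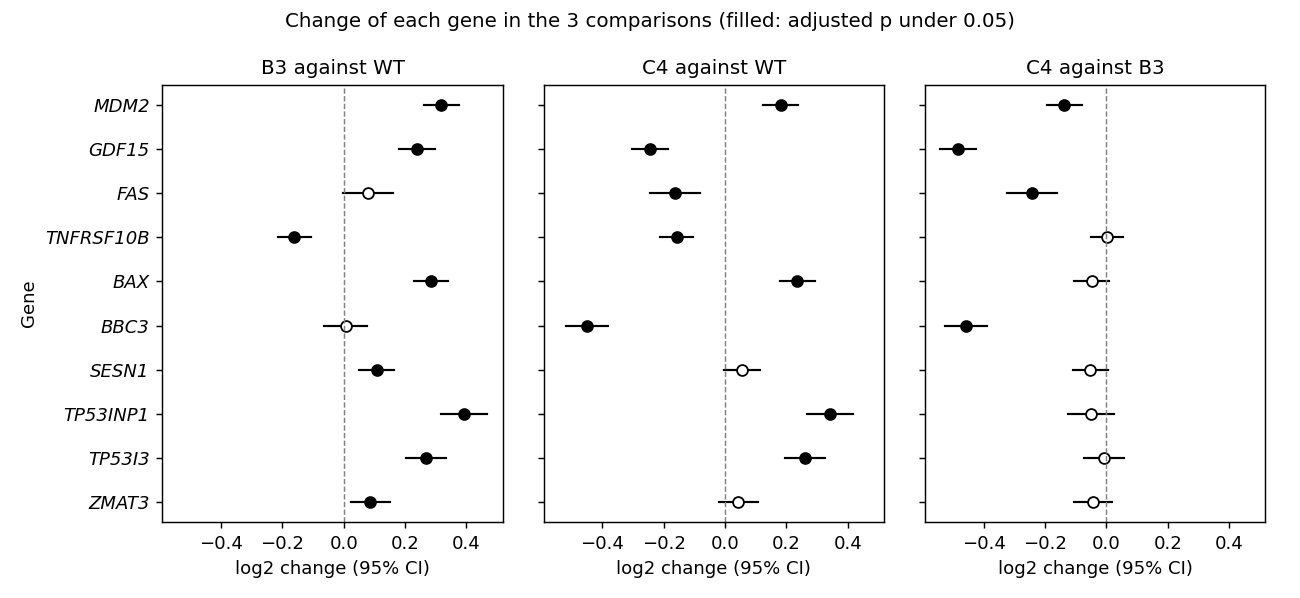
Log2 change of each of the 10 genes (rows) in B3 against WT, C4 against WT and C4 against B3 (panels), with 95% intervals from limma. Filled points had an adjusted p under 0.05: 8 genes in B3, 8 in C4 and 4 for C4 against B3.

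Between the lines, 4 of the 10 genes were lower in C4 than in B3 and 0 were higher, where 56.4% of all tested genes were called, 27.8% lower and 28.6% higher. At an unadjusted p under 0.05 limma likewise gave 0 higher. The 4 were GDF15, BBC3 (-0.46 ± 0.03, adjusted p = 3.93e-11), FAS (-0.24 ± 0.04, adjusted p = 1.50e-05) and MDM2. TP53I3 and TNFRSF10B had differences of -0.01 and 0.00, so that C4 stood at 99.5% and 100.2% of B3. As background, CDKN1A, the p53 target that encodes the kinase inhibitor p21, rose by 0.12 ± 0.02 in B3 and by 0.13 ± 0.02 in C4.

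Further p53 targets were taken from a list of 32 genes with other members of the pathway, of which 30 could be tested. This list leaves out the p53 targets CDKN1A, APAF1 and PMAIP1, which are given elsewhere. Of those, CDKN1A and APAF1 rose in both lines and PMAIP1 fell in C4. In B3, 17 of the 30 rose (56.7%, against 23.2% of all genes) and 6 of the 30 fell (against 24.6% of all genes). The median change in B3 was 0.10, against 0.00 for all genes. In C4, 13 rose (43.3%, against 28.2%) and 10 fell (33.3%, against 28.0%), with a median of 0.02. Upward in both lines were 11 of the 30, or 36.7%, against 11.6% of all genes. Downward in both were 3 of the 30, against 12.5% of all genes. Some of these calls were near the threshold. Among the 11, AEN in C4 had an adjusted p of 0.048 in limma, and 0.00575 to 0.256 over the alternatives. Among the 3, PSTPIP2 in B3 had 0.0438, and 0.00719 to 0.176 over the alternatives. The C4 call of PHLDA3, also among the 3, ended with libraries at the same total (adjusted p = 0.105). Called in opposite directions were 4 of the 30, against 8.58%. Among the 11 was the ribosomal protein-like gene RPS27L (0.23 ± 0.03 in B3 and 0.26 ± 0.03 in C4). The antiproliferative gene BTG2 (0.20 ± 0.03 and 0.24 ± 0.03) was another. So was the phosphatase gene PPM1D, a feedback inhibitor of p53 (0.13 ± 0.03 and 0.12 ± 0.03). KITLG, the ligand of the receptor KIT, rose by 0.28 ± 0.02 in B3 and by 0.34 ± 0.02 in C4, and the DNA damage recognition gene DDB2 rose by 0.30 ± 0.02 in C4. The largest change of the list was a fall: EDA2R, a receptor of the tumour necrosis factor family, had log2 values of 9.47, 9.51 and 9.49 in B3, 9.009, 9.036 and 8.997 in C4 and 10.02, 10.04 and 10.03 in WT. It was lowest in C4 and highest in WT with no overlap, at changes of -0.54 ± 0.04 and -1.01 ± 0.04 (adjusted p = 2.17e-10 and 1.01e-15). SULF2, an extracellular sulfatase, and GADD45A, a growth arrest and DNA damage gene, went opposite ways, at 0.31 ± 0.04 and 0.13 ± 0.02 in B3 and at -0.28 ± 0.04 and -0.295 ± 0.023 in C4. C4 was lower than B3 for 14 of the 30 (46.7%, against 27.8% of all genes) and higher for 7 (23.3%, against 28.6%). Without B3 replicate 1 or without C4 replicate 2 the count of higher genes was 4, and the count of genes lower in B3 than in WT was 3 without B3 replicate 1.

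**Figure D3:**
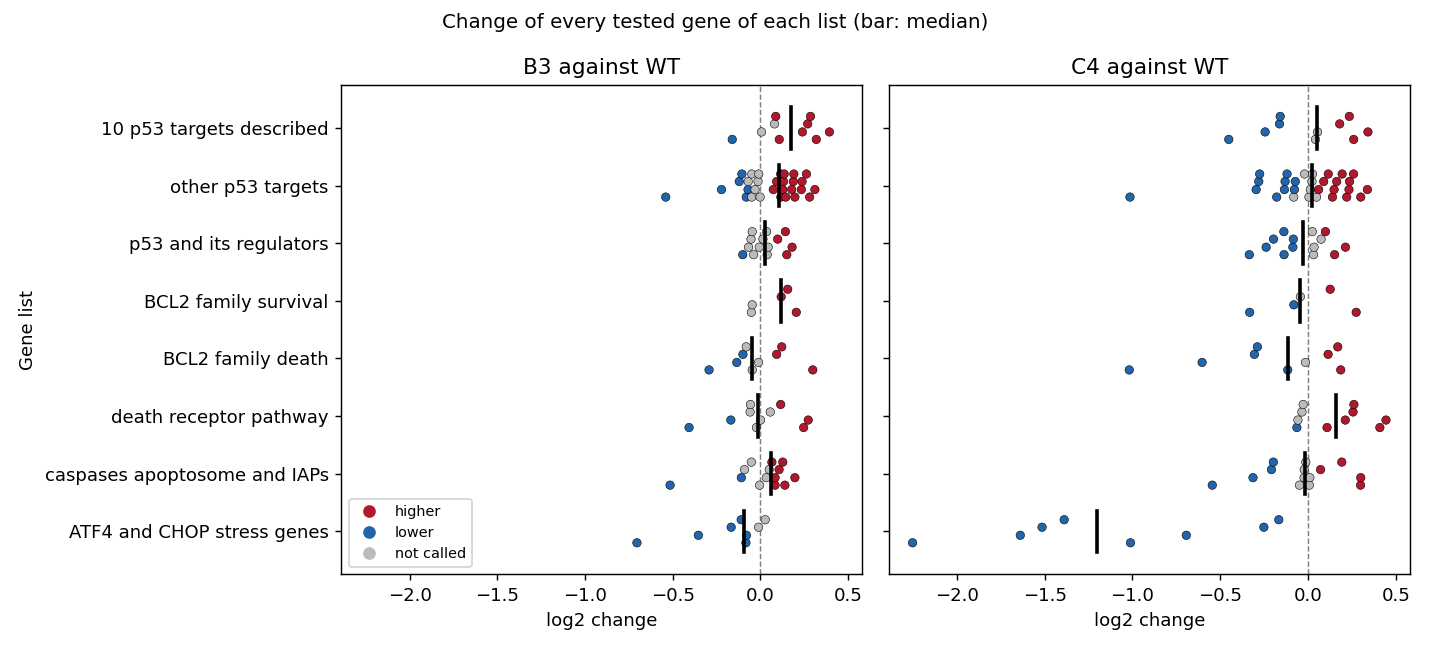
Log2 change (x axis) of every tested gene of 8 lists (rows) in B3 against WT and in C4 against WT. Red and blue points passed limma's test upward and downward, grey points did not, and the black bars are list medians, at 0.17 and 0.05 for the 10 genes described.

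Of a list of 14 genes that includes p53 regulators and relatives, 4 rose and 1 fell in B3 (35.7% called, against 47.9% of all genes). In C4, 3 rose and 7 fell (71.4% called, against 56.2%). The acetyltransferase gene KAT5 rose by 0.18 ± 0.03 in B3 and by 0.15 ± 0.03 in C4. The checkpoint kinase gene CHEK1 and TP53BP1, a binding partner of p53 in DNA repair, rose by 0.15 ± 0.03 and 0.14 ± 0.02 in B3 and fell by 0.14 ± 0.03 and 0.09 ± 0.02 in C4 (adjusted p = 0.000377 and 0.0022). In C4 the p53 relative TP63 fell by 0.33 ± 0.05, RCHY1, a further ubiquitin ligase of p53, fell by 0.24 ± 0.035, and the damage kinase gene ATR rose by 0.21 ± 0.03.

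The list of death genes of the BCL2 family leaves out BAX, which rose in both lines, and BBC3, which fell in C4. Of its 9 tested genes 3 rose and 3 fell in B3 (33.3% each, against 23.2% and 24.6% of all genes). In C4, 3 rose (33.3%, against 28.2%) and 5 fell (55.6%, against 28.0%). PMAIP1, the gene of the BH3-only protein NOXA and like BBC3 a target of p53, had log2 values of 14.15, 14.09 and 14.17 in B3, 13.26, 13.20 and 13.20 in C4 and 14.17, 14.27 and 14.28 in WT. The 3 C4 libraries lay below all others, and B3 overlapped WT. PMAIP1 fell by 1.02 ± 0.03 in C4 (adjusted p = 1.01e-18), and its change in B3 of -0.10 ± 0.03 (adjusted p = 0.00567) was lost without WT replicate 3 (0.0508), without B3 replicate 2 (0.0544) or with libraries at the same total (0.0523). BOK fell by 0.60 ± 0.04 and the BH3-only gene HRK by 0.305 ± 0.043 in C4. BID, which links death receptors to mitochondria, fell by 0.29 ± 0.03 in each line. BCL2L11, the gene of BIM, rose by 0.30 ± 0.02 in B3 and fell by 0.115 ± 0.024 in C4. Of the 5 tested survival genes 3 rose in B3, where 23.2% of all genes did, and 2 rose and 2 fell in C4, against 28.2% and 28.0% of all genes. MCL1 fell by 0.33 ± 0.03 in C4 and rose by 0.12 ± 0.03 in B3, while BCL2 rose by 0.275 ± 0.032 in C4.

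The list of the death receptor pathway leaves out TNFRSF10B and FAS, which both fell in C4. Of its 10 tested genes 3 rose and 2 fell in B3, near the 23.2% and 24.6% of all genes. In C4, 6 rose and 1 fell, against 28.2% and 28.0%. The 1 that fell was TNF, with low log2 values of 4.79 to 4.89. Its adjusted p in limma was 0.0486, in a range from 0.0345 to 0.297 over the alternatives. TNFSF10, the gene of the ligand TRAIL, rose by 0.25 ± 0.05 in B3 and by 0.26 ± 0.05 in C4, where its receptor gene TNFRSF10B fell. The adaptor gene TRADD rose by 0.445 ± 0.047 in C4, the receptor gene TNFRSF21 rose by 0.27 ± 0.035 in B3 and by 0.41 ± 0.035 in C4, and the tumour necrosis factor receptor gene TNFRSF1A fell by 0.41 ± 0.03 in B3. The decoy TRAIL receptor gene TNFRSF10C changed by -0.17 ± 0.05 in B3 (adjusted p = 0.00832, and 0.0547 without WT replicate 1) and rose by 0.26 ± 0.05 in C4. Of 14 caspase, apoptosome and IAP genes 7 rose and 2 fell in B3, against 23.2% and 24.6% of all genes, and 4 rose and 4 fell in C4 (28.6% each, near the 28.2% and 28.0% of all genes). APAF1, the scaffold of the apoptosome and a p53 target, rose by 0.20 ± 0.03 in B3 and by 0.30 ± 0.03 in C4, and CASP10 fell by 0.515 ± 0.045 in B3 and by 0.313 ± 0.045 in C4. BIRC3, an inhibitor of apoptosis regulated by NF-kB, fell by 0.545 ± 0.038 in C4.

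Because GDF15, BBC3, TNFRSF10B and PMAIP1 can also respond to ATF4 and CHOP, the values of that axis are given beside them. Of 8 genes of the ATF4 and CHOP list, 0 rose and 6 fell in B3 and 0 rose and 8 fell in C4, against 24.6% and 28.0% of all genes called lower, with medians of -0.10 and -1.20. Some of the 6 calls in B3 were lost with libraries scaled to the same total. DDIT3, the gene of CHOP, changed by -0.70 ± 0.04 in B3 and by -1.39 ± 0.04 in C4, and ATF4 by -0.17 ± 0.03 and -1.01 ± 0.03. The part of this axis in the changes of the p53 targets was not tested.

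The genes around each locus were compared with it, as a description. Within 5 Mb of MDM2 on chromosome 12 the 40 other tested genes had a median change of -0.14 in B3, and 27 of them (67.5%, against 24.6% of all genes) were called lower. MDM2 rose there by 0.32, above all 40. In C4 the same neighbours had a median of 0.07, with 21 (52.5%, against 28.2%) called higher, and MDM2, at 0.18, lay above 31 and below 9 of them. Around TP53INP1 on chromosome 8 the 44 neighbours had a median of -0.12 in C4, with 30 (68.2%, against 28.0%) called lower, and TP53INP1 lay above 41 of them. TNFRSF10B, on the other arm of the same chromosome, lay in B3 near the middle of its surroundings: the 59 neighbours had a median of -0.14, close to its own -0.16, and 27 of them lay below it. In C4 the neighbours of TNFRSF10B had a median of 0.04, and 52 of 59 lay above it. For the other 7 genes the median of the neighbours lay between -0.025 and 0.036 in both lines.

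**Figure D4:**
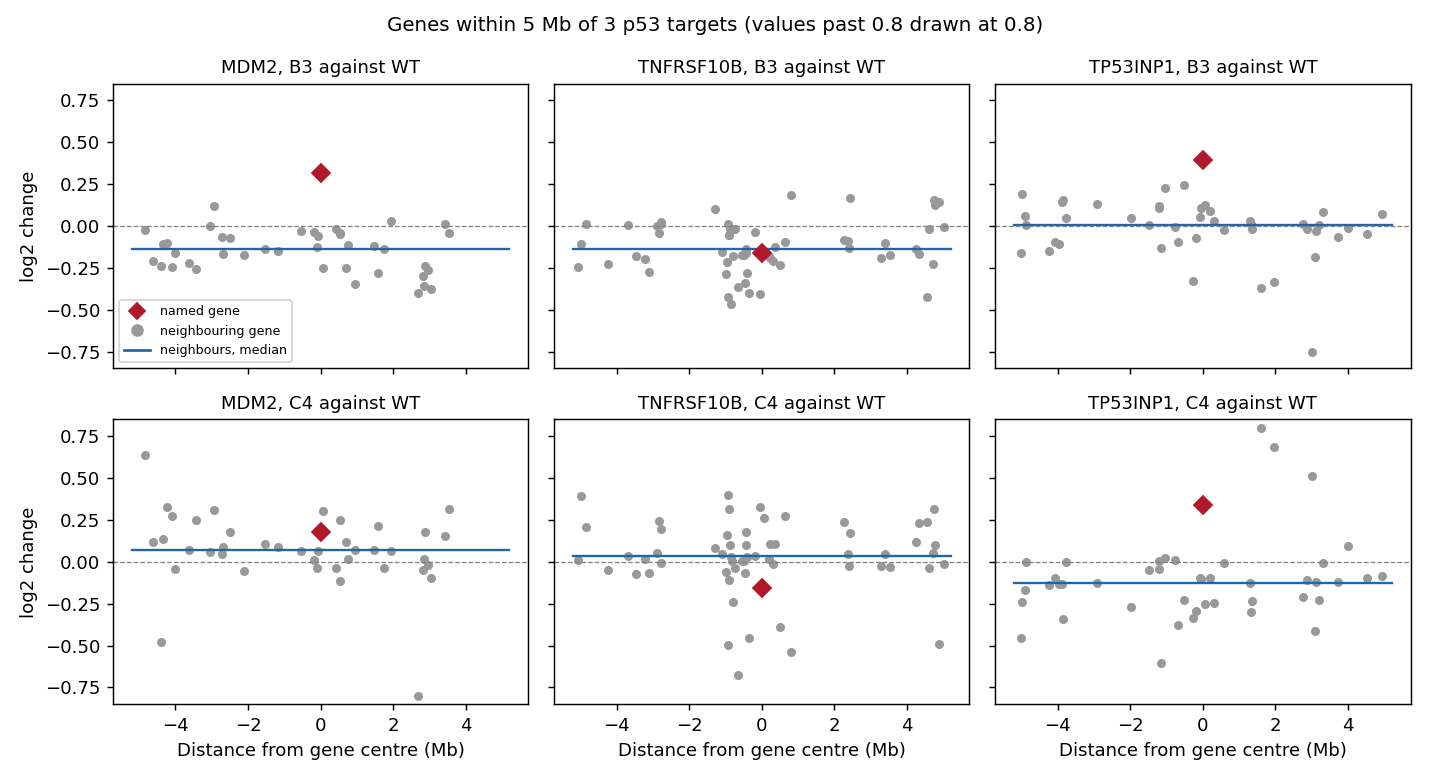
Log2 change (y axis) of genes within 5 Mb of MDM2, TNFRSF10B and TP53INP1 against their distance from the centre of that gene (x axis, Mb), in B3 (top) and C4 (bottom) against WT. Red diamonds are the named genes, grey points their neighbours and blue lines the neighbours' median, which is -0.14 for MDM2 and TNFRSF10B in B3 and -0.12 for TP53INP1 in C4.

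Some exons of these genes overlap exons of a gene on the other strand, and the use of strand in counting is not given in the sources used here, so reads from the overlaps cannot be told apart. CPM, which overlaps MDM2, changed by -0.25 ± 0.03 in B3 and by 0.30 ± 0.03 in C4. RHOBTB2, which overlaps TNFRSF10B, changed by -0.41 ± 0.03 in B3 and by 0.33 ± 0.03 in C4, opposite in sign between the lines where TNFRSF10B was not. ACTA2, the partner of FAS, and FAM228B, the partner of TP53I3, were not called against WT in either line (adjusted p = 0.263 and 0.122 in B3, 0.169 and 0.148 in C4).

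Likeness between genes was measured as the root mean square difference between profiles centred on their own means, over 9 libraries. BAX and TP53I3 were each other's nearest gene among the 10, at 0.04, and 33 of all tested genes were nearer to BAX. TP53INP1 was nearest to TP53I3, at 0.06, with 20 tested genes nearer, and MDM2 to BAX, at 0.06, with 130 nearer. FAS and BBC3 were nearest to GDF15, at 0.11 each, but 4430 tested genes were nearer to FAS and 714 to BBC3. TNFRSF10B was nearest to SESN1, at 0.118, with 9405 tested genes nearer. That difference was larger than its median of 0.109 over all tested genes. Among genes outside the lists, NAGK and SHCBP1 were nearest to TP53I3 (0.02 and 0.03), HJURP and TGFA to GDF15 (0.02 each), CYC1 and PDE4D to BBC3 (0.02 each), DDAH2 and CUEDC1 to BAX (0.03 each), BCAR3 and MICB to TP53INP1 (0.04 each), and KIF18B and PSMD11 to MDM2 (0.03 each). NUDT13 and CDC25C were nearest to FAS (0.03 each), ZFYVE27 and PLOD1 to TNFRSF10B (0.02 each), ATG13 and TPM3P9 to SESN1 (0.02 each), and AQP6 and MRPL54 to ZMAT3 (0.02 each).

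Facts of the whole table bear on these values as follows. ARNT2 changed by -1.69 ± 0.03 in B3 and by -1.43 ± 0.03 in C4. Read depth is unknown, and the values are not per length, so the levels of different genes are not ranked. The glioma markers VIM (17.83 to 18.23), S100B (16.12 to 16.49) and GFAP (6.61 to 6.98) passed the filter on low values, while the immune markers PTPRC and CD3E, at most at 2.40, did not. CD68, a lysosomal marker of macrophages, stood at 10.94 to 10.99 in B3, 10.68 to 10.70 in C4 and 10.68 to 10.73 in WT and rose in B3 by 0.27 ± 0.03 (adjusted p = 7.87e-07). The endothelial markers stood at 5.19 to 5.46 (PECAM1) and 8.48 to 8.95 (VWF), and the epithelial marker EPCAM at 5.59 to 5.97. Of 8 markers of other cells, 6 passed the filter. Of these, CD68 rose and 2 fell in B3, where 23.2% of all genes were called higher and 24.6% lower. In C4, 0 rose and 1 fell, against 28.2% and 28.0% of all genes. The part of these markers in the results was not tested. With libraries scaled to the same total, 64.2% of called genes in B3 and 61.5% in C4 were higher, against 48.5% and 50.2% with the deposited scaling. No label says whether libraries of 1 group derive from separate cultures. The p-values therefore reflect library-to-library spread alone, and that spread may be technical.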

How the data were processed

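Polyadenylated RNA of 9 libraries, 3 per group, was measured. The tools named in the submitters' processing notes are DESeq2, Subread 1.6.3 and STAR 2.7.3a, and the build is hg38. The authors deposited log2 values, 1 per gene and library. Their medians are close across libraries and they look like a regularized log, which no label names: the median SD between replicates was 0.00935 at values under 2, 0.0433 at 4 to 8, 0.0558 at 8 to 10 and 0.0411 at 10 to 12. If so, changes of weakly expressed genes may be understated. No reads were recovered, depth is unknown, and the precision rests on 3 libraries per group.

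Genes whose antilog values averaged 10 or more were tested in 1 fit (limma 3.58.1, R 4.3.3), with empirical Bayes moderation and an intensity trend, two-sided, and Benjamini-Hochberg adjustment over 16457 genes. The fit was tested on simulated data. Positions and neighbours are from GENCODE 29 on GRCh38, which held 92.7% of tested symbols. The 10 genes and all lists were chosen with earlier results of these data known. Named were the 10 genes, MDM4, ARNT2, CDKN1A and the 2 nearest profiles per gene. Of the up to 3 called genes with the largest change per list and comparison, some were named and others were not. RPS27L, BTG2, PPM1D, AEN, PSTPIP2, PHLDA3, TNF and the markers and partners were chosen after their values were seen. Some list members are counted with their list and not reported singly here. No label gives a batch. Alternatives were other pseudocounts, filters, scalings, moderation, a replicate block, fits of the compared groups and leaving out each library.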

Additional observations from a re-analysis of the deposited data

Results flagged for a closer look

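GDF15 was singled out because its changes from WT had opposite signs in the 2 lines and the difference itself passed limma's test. It was higher in B3 by 0.24 and lower in C4 by 0.24, and C4 minus B3 was -0.483 on the log2 scale (adjusted p = 5.59e-13), with all 3 C4 libraries below and all 3 B3 libraries above those of WT. The 2 changes share the WT libraries.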

How the results depend on the processing

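Of 30 changes (10 genes in 3 comparisons), 25 kept their side of the threshold under all 19 alternatives. The sign flipped under some alternatives for 3 that passed the test in none of them: BBC3 in B3, and TNFRSF10B and TP53I3 in C4 against B3. The other 5 (FAS and ZMAT3 in B3, SESN1 and ZMAT3 in C4, and BAX between the lines) are described with their values above, and no called change turned its direction. Leaving out 1 library at a time, the 10 genes gave 6 to 8 higher and 1 to 1 lower in B3, 4 to 5 higher and 4 to 4 lower in C4, and 0 to 0 higher and 4 to 5 lower in C4 against B3. The other p53 targets gave 16 to 17 higher and 3 to 6 lower in B3, 12 to 13 and 8 to 10 in C4, and 4 to 8 and 11 to 14 between the lines. Of all 16457 tested genes, 3359 to 3898 were higher and 3575 to 4118 lower in B3 in these fits. The ranges were 4233 to 4654 and 4154 to 4618 in C4, and 4282 to 4861 and 4081 to 4735 between the lines. With libraries at the same total, 3 of the other p53 targets were lower in B3, against 6 with the deposited scaling. Of all tested genes 3054 were lower in B3 at the same total, against 4054. The looser search for paired p53 sites, chosen after the data were seen, found 4 genes against 0. Replicate numbers gave no pairing of libraries (correlations of -0.229 to 0.016 between same-numbered libraries). With a replicate block the 10 genes gave 7 higher and 1 lower calls in B3, 4 and 4 in C4, and 0 and 4 for C4 against B3, and the other p53 targets gave 17 higher and 4 lower in B3. Of all 16457 tested genes, 3633 were higher and 3871 lower in B3 with that block. The counts were 4516 and 4445 in C4, and 4567 and 4450 for C4 against B3. The causes were not tested. Unknown depth and 3 libraries per group limit what small changes can be seen.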

Other observations

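Paralogues of the 10 genes did not always follow them. SESN2, the stress-induced relative of SESN1, had log2 values of 13.57, 13.60 and 13.53 in B3, 12.66, 12.67 and 12.62 in C4 and 13.46, 13.54 and 13.55 in WT. It fell by 0.86 ± 0.03 in C4 (adjusted p = 7.33e-18), with every C4 library below all others, where SESN1 was not called. In B3 its change was 0.05 ± 0.03 (adjusted p = 0.163, and 0.0159 with libraries at the same total). SESN3 rose by 0.17 ± 0.03 in B3 and by 0.29 ± 0.03 in C4. TP53INP2, a relative of TP53INP1 with a role in autophagy, rose by 0.31 ± 0.03 in B3 and by 0.18 ± 0.03 in C4. Of the 6 paralogues tested, 2 rose and 1 fell in B3, against 23.2% and 24.6% of all genes, and 3 rose and 2 fell in C4, against 28.2% and 28.0%.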
